A study of Saccharomyces cerevisiae with 50 samples.

Results

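Sut1p is a zinc cluster transcription factor of Saccharomyces cerevisiae, known for sterol uptake and for genes that are switched on when oxygen is scarce. Nrg1p is a zinc finger repressor that works with the Tup1p-Cyc8p corepressor in glucose repression, and Sut1p has been linked to relief from the same corepressor. Both are usually studied at promoters, upstream of genes. Described here are the places where Sut1p was called bound away from every promoter in cells that lack Nrg1p. They were selected on the measured values themselves: overlapping Sut1p peaks of the 3 nrg1Δ immunoprecipitations (IPs) were merged, and a merged region was kept when not 1 bp of it lay in the 600 bp upstream of any of 6430 genes of the R64 annotation. This left 389 of 1404 merged regions. The other 1015 touch a promoter and serve for comparison.

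In these cells most regions outside promoters touched the gap or the facing ends of convergent genes (genes transcribed toward each other). Of the 389 regions, 216 (55.5%) were at a convergent gene pair, 155 (39.8%) lay inside gene bodies, 9 (2.31%) covered another gene end and 9 (2.31%) were elsewhere. Of windows of the same widths that touch no promoter, 27.4% were at a convergent pair. The convergent share was 75.4% among the 69 regions with a peak in all 3 nrg1Δ IPs, against 32.1% of windows. By midpoint, 71.5% of the 389 regions lay in a gene and 24.7% in a gap between convergent genes. Of the 12 strongest regions, 11, such as the one between PSP2 and PPZ1, had no peak in wild-type IPs 1 and 2. Wild-type IP 3 had a peak at 11 of the same 12 regions. A peak in wild-type IP 1 or 2 was found at 2.06% of the 389 regions and at 11.3% of all 1404. Wild-type IP 3 had a peak at 115 of the 389 (29.6%, against 31.5% of all 1404 regions).

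Transcription factors with a c-myc tag at the C terminus were immunoprecipitated from W303-derived yeast with and without a predicted cofactor, and the DNA was sequenced (ChIP-Seq). For Sut1p the IPs came from a SUT1-myc nrg1Δ strain, in which a kanamycin marker replaces NRG1, and from the SUT1-myc strain with NRG1 intact (wild type), 3 IPs each. All cultures for Sut1p, Nrg1p and Swi4p grew in YPD at 30° to an OD600 of 0.8. Cultures for Gcn4p and Rtg3p grew in YPD to a slightly lower OD600 and then received 100 nM rapamycin for 20 min. The harvest OD600 of the Swi6p cultures is not given by name. The other lists used are those of Gcn4p with and without RTG3, Rtg3p with and without GCN4, Nrg1p with and without SUT1, Swi4p with and without SWI6, and Swi6p with and without SWI4, with 3 IPs per strain except 2 for Swi6p and 1 for Swi4p. The wild-type IPs of a factor were taken from 1 split culture, whereas the deletion strains were grown separately, so that P-values between strains also hold differences between cultures. The labels give 1 INPUT sample for each Sut1p strain, so the 3 peak lists of a strain share their control and are not fully independent. A peak list cannot show whether NRG1 is absent, so the deletion was not checked here, and nothing in the labels says that a strain was made more than once.

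Each deposited list gives peaks with a position and a score, which is −10 × log10 of the P-value of the peak caller MACS and is at least 50 in all lists. The depth of the libraries is unknown, and a missing peak means only that none was called. Scores depend on that depth too, so those of different IPs are set side by side and were not tested against each other. The 6 Sut1p lists differed much in length, with 696, 808 and 1065 peaks in nrg1Δ IPs 1 to 3 and 117, 267 and 579 in wild-type IPs 1 to 3. Wild-type IP 3 stood apart from the other wild-type IPs, both away from promoters and at them. All 7 peaks outside promoters of wild-type IP 1 were also in IP 2, but of the 165 such peaks in wild-type IP 3 only 2 were in IP 1 and 3 in IP 2. By contrast, 26.7%, 38.2% and 59.4% of those 165 were in nrg1Δ IPs 1, 2 and 3. Its 414 peaks at promoters were split in the same way. Of these, 5.31% and 12.3% were in wild-type IPs 1 and 2, against 46.9%, 62.1% and 66.9% in nrg1Δ IPs 1, 2 and 3. The nrg1Δ lists are also the longer ones, and the part of list length in these shares was not tested. The differences between the strains and the shares of regions with a wild-type peak are therefore given with and without wild-type IP 3.

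Away from promoters, the nrg1Δ IPs held 186, 176 and 325 peaks, against 7, 16 and 165 in the wild-type IPs. Wild-type IP 3 came close to nrg1Δ IPs 1 and 2, and the 2 strains did not overlap. The mean was 229 ± 83.3 in nrg1Δ and 62.7 ± 88.7 in wild type (SD, n = 3 each), a difference of 166 peaks with p = 0.1 (exact permutation of the IPs between strains, two-sided), the smallest value that 3 against 3 can give. With peaks of a score of at least 100 alone the difference was 85 peaks, or 109 peaks without wild-type IP 3. Over all peaks it was 218 peaks without wild-type IP 3. As a share of each list, 26.7%, 21.8% and 30.5% of nrg1Δ peaks lay outside promoters, against 5.98%, 5.99% and 28.5% of wild-type peaks. Here the strains overlapped, because wild-type IP 3 lay above nrg1Δ IPs 1 and 2. The difference of 12.85 percentage points was within the spread (p = 0.3, exact permutation test), and it was 20.4 points without wild-type IP 3. With each list limited to its 117 highest peaks, the length of the shortest list, the shares were 21.4%, 11.1% and 20.5% in nrg1Δ and 5.98%, 4.27% and 24.8% in wild type, a difference of 5.98 points or 7 peaks (p = 0.4, exact permutation test). Without wild-type IP 3 the difference at equal length was 12.5 points (p = 0.2, exact permutation test, smallest possible 0.1). Wild-type IP 3 therefore stood apart from the other wild-type IPs at equal list length too.

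**Figure D1:**
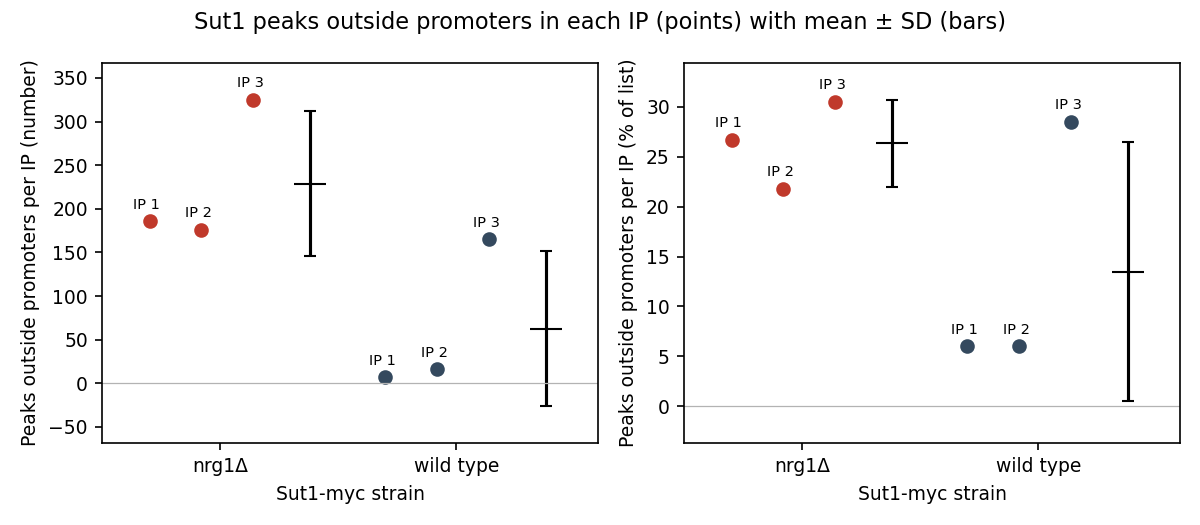
Sut1 peaks that touch no promoter in each IP of the nrg1Δ and wild-type strains, as a number (left) and as a percentage of the peaks of the list (right). Points are IPs and bars are the mean ± SD of 3 IPs. Wild-type IPs 1 and 2 lie at 7 and 16 peaks and near 6% (5.98% and 5.99%), while wild-type IP 3, at 165 peaks and 28.5%, lies among or close to the nrg1Δ IPs.

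In genome space the regions were spread over every chromosome, from 17.6 per Mb on chromosome 1 (4 regions) to 46.7 per Mb on chromosome 11 (31 regions). Chromosome 4 held the most regions, 55, at 35.9 per Mb. Their median width was 989 bp, against 1144 bp for regions at promoters. Of all bases up to the last gene of each chromosome, 73.5% lie outside promoters. Since 1 shared bp puts a whole region at promoters, this share of bases does not give the space open to either group. Members just inside the promoter rule were the region at EMC6 and PUF3, 1 bp from a promoter, the one at LSR1 at 3 bp and the one at TFB2 at 5 bp. Just outside it were regions that share 1 bp with a promoter at FEN2, 1 bp at RRP12 and TAF3, and 11 bp at HLR1 and QCR7. In all, 16 members lay within 50 bp of a promoter and 19 other regions overlapped promoters by less than 50 bp, while the median distance of a member to the nearest promoter was 610 bp.

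To see what region width and the promoter rule alone would give, every window of the same widths was classed in the same way. At a convergent pair were 55.5% of the regions, against 27.4% of the windows that touch no promoter, and inside gene bodies were 39.8% of the regions, against 64.8% of the windows. The rule that chose the regions did not use gene ends, and these shares are descriptions without a test. The convergent share was 46.4% of regions with a peak in 1 nrg1Δ IP, 62.5% with 2 and 75.4% with 3, while the windows gave 25.2%, 29.2% and 32.1%. In the same order, 48.2%, 35.4% and 18.8% of regions lay inside gene bodies. In each nrg1Δ list on its own, 65.6%, 57.4% and 54.5% of the peaks outside promoters were convergent, against 28.6% (2 of 7), 43.8% (7 of 16) and 47.3% (78 of 165) in the wild-type lists. Lists of other factors with at least 50 peaks outside promoters gave 21.3 to 49.1%, and the wild-type Rtg3p lists gave 48.8%, 63.4% (26 of 41) and 49.1%. The nrg1Δ shares thus lay above those of the other factors' lists with at least 50 such peaks. The wild-type Rtg3p list of 41 such peaks lay among the nrg1Δ lists. These differences were not tested.

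**Figure D2:**
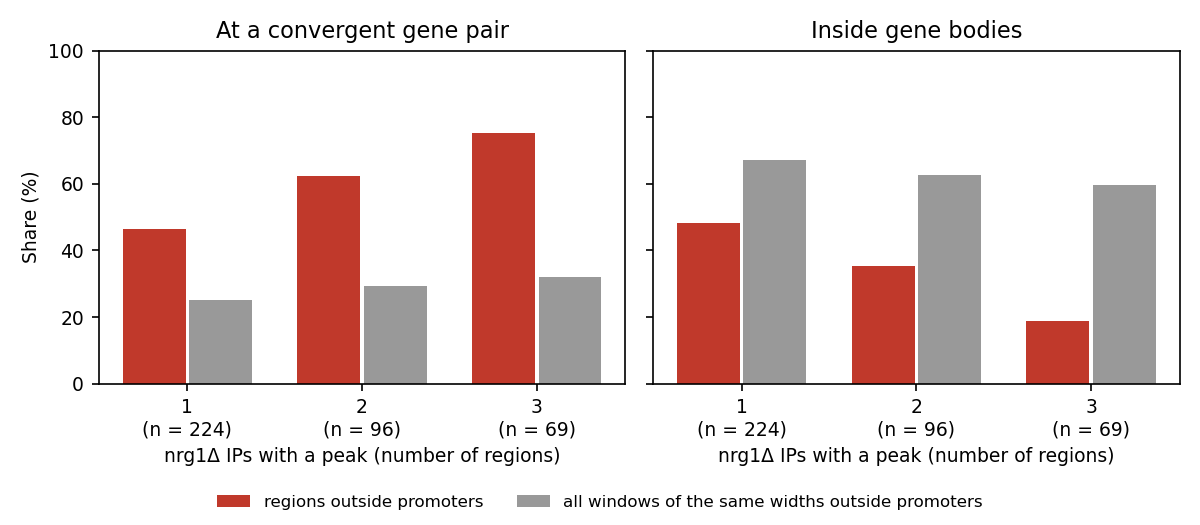
Percentage of the regions outside promoters (red) that were at a convergent gene pair (left) or inside gene bodies (right), by the number of nrg1Δ IPs with a peak, beside the percentage of all windows of the same widths that touch no promoter (grey). The convergent share is 46.4%, 62.5% and 75.4% for 1, 2 and 3 IPs, and the gene body share is 48.2%, 35.4% and 18.8%.

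The midpoints of the regions showed the same placement. Of 389 midpoints, 278 (71.5%) fell in a gene and 96 (24.7%) in the gap between 2 convergent genes, where 7.22% of the midpoints of same-width windows fell. The share in such gaps was 17.9%, 27.1% and 43.5% for regions with a peak in 1, 2 and 3 nrg1Δ IPs, against 7.04%, 7.36% and 7.58% of the windows. Around the gaps, 136 of the 216 convergent regions (63.0%) had their midpoint within 250 bp of the gap centre, and the median distance was 181 bp. A region at a pair lies near the gap by the definition of the class, and 40.6% of all convergent windows of the same widths had their midpoint as near. The annotation holds 1519 convergent pairs whose ends and gap are free of promoters, and 213 of them (14.0%) had a region, 51 (3.36%) one seen in all 3 IPs. The gap was 291 bp wide in the median for pairs with a region and 210 bp for those without.

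**Figure D3:**
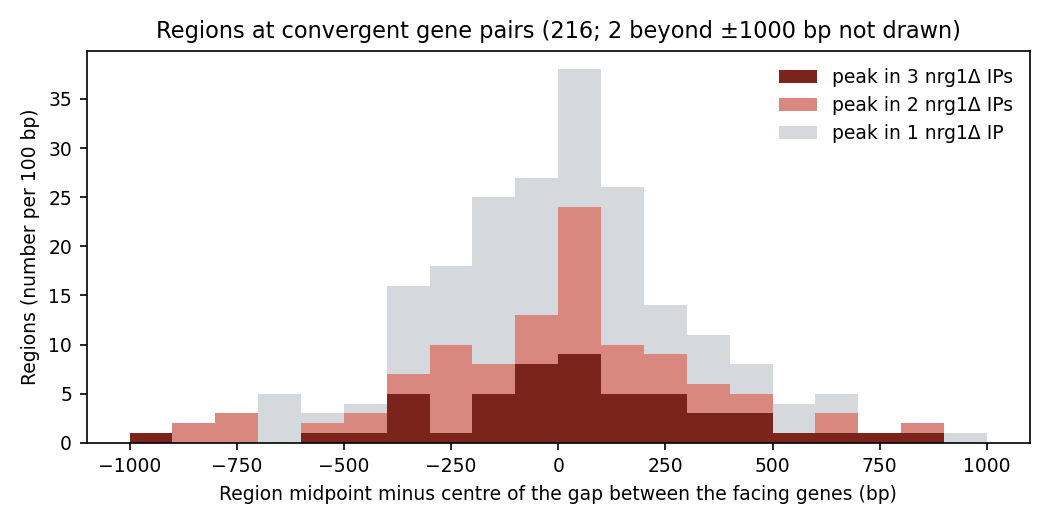
Distance from the centre of the gap between 2 convergent genes to the midpoint of the Sut1 region there, for the 216 convergent regions in bins of 100 bp, stacked by the number of nrg1Δ IPs with a peak. Positive values point to higher coordinates. Of the 216, 136 lie within 250 bp (63.0%, against 40.6% of convergent windows of the same widths), and 2 lie beyond the axis.

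As merged, a smaller share of regions outside promoters than at promoters had a peak in all 3 nrg1Δ IPs. The peaks of IPs 1, 2 and 3 gave 155, 161 and 307 of the 389 regions, and 45, 31 and 148 regions had a peak in that IP alone. Over the regions outside promoters, 224 (57.6%) had a peak in 1 nrg1Δ IP, 96 (24.7%) in 2 and 69 (17.7%) in 3, whereas at promoters the shares were 42.8%, 25.7% and 31.5%. Regions with a peak in 1, 2 and 3 IPs had median widths of 880.5, 1019 and 1163 bp outside promoters and 1008.5, 1204 and 1392 bp at promoters. A wider region touches a promoter more readily, and the part of width in these shares was not tested. Since the nrg1Δ IPs chose the regions, the comparison of support was repeated with regions merged from 2 IPs and looked up in the third. Outside promoters 32.4%, 39.5% and 68.6% of regions were found again in left-out IPs 1, 2 and 3, against 47.4%, 57.5% and 65.9% at promoters. The difference of -10.1 percentage points was within the spread over IPs (p = 0.5, exact sign-flip permutation test, n = 3, smallest possible 0.25), and it was -16.5 points without IP 3 as the left-out list (the only list in which more regions outside promoters were found again) and -6.15 points without IP 2.

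Scores followed support. The best score of a region had a median of 104 outside promoters and 146 at promoters, and the highest were 1655 and 3100. With a peak in 1, 2 and 3 IPs the median best score outside promoters was 72.6, 140 and 280, against 85.3, 155 and 308 at promoters. Outside promoters 188 regions (48.3%) stayed under 100, against 345 (34.0%) at promoters, and 94 (24.2%) reached 200, against 372 (36.7%). These values chose the regions and were not tested.

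The 12 regions with the highest mean score among those seen in every nrg1Δ IP were led by PSP2 and PPZ1. The region lies at chr13:238218-240107 over the facing ends of PSP2, which codes for an RNA-binding protein, and PPZ1, a protein phosphatase of salt and ion balance, whose ends are 726 bp apart. Its scores were 520.8, 1394.5 and 1655.2 in nrg1Δ IPs 1 to 3, against no peak in wild-type IPs 1 and 2 and 279.82 in wild-type IP 3. No wild-type score reached the lowest of the nrg1Δ scores. The next, at chr10:673425-675626, covers the end of XPT1, a purine salvage enzyme, and most of SGM1. Its midpoint lies inside SGM1, 851 bp from the centre of the gap between the 2 genes. It scored 494, 687.66 and 916.6 in nrg1Δ, against none, none and 275.43 in wild type. A region at chr4:91716-93350 covers the ends of YCX1 and of the heme synthesis gene HEM3, and scored 237.41, 333.69 and 1087.67 in nrg1Δ, against none, none and 274.57 in wild type. In these 3 convergent regions nrg1Δ IP 3 was the highest and wild-type IP 3 the sole wild-type list with a peak, above nrg1Δ IP 1 at YCX1/HEM3.

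A peak in wild-type IP 3 but not in IPs 1 and 2 was also seen at YCK3, VAC17/MRC1, RIP1/YEL023C, PET20, TFC4, ECM33/RPG1 and EMC6/PUF3. YCK3, a casein kinase of the vacuole, had 587.16, 274.59 and 865.68 in nrg1Δ, against none, none and 314.65 in wild type, at chr5:405457-407204. The region at chr3:17944-19603 lies over VAC17, an adaptor for vacuole inheritance, and MRC1, a replication checkpoint protein, and had 255.96, 452.04 and 754.45 in nrg1Δ, against none, none and 220.92 in wild type. At RIP1, the Rieske iron-sulfur protein of the respiratory chain, and YEL023C the scores were 422.09, 385.48 and 605.88 in nrg1Δ, against none, none and 245.62 in wild type (chr5:107577-109467). At VAC17/MRC1 and RIP1/YEL023C wild-type IP 3 stayed below every nrg1Δ IP, whereas at YCK3 it was above nrg1Δ IP 2.

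PET20, needed for respiratory growth, had 299.51, 577.67 and 415.63 in nrg1Δ, against none, none and 168.33 in wild type (chr16:250272-251472). ECM33, a cell wall protein gene, and RPG1, which codes for a subunit of translation initiation factor eIF3, share a region at chr2:394388-395966 with 517.81, 373.09 and 742.05 in nrg1Δ, against none, none and 50.65 in wild type. EMC6, of the endoplasmic reticulum membrane complex, and PUF3, an RNA-binding protein of mitochondrial messages, had 478.3, 140.84 and 482.56 in nrg1Δ, against none, none and 63.95 in wild type (chr12:121323-122571). The wild-type IP 3 score was near the minimum of 50 in the regions of ECM33/RPG1 and EMC6/PUF3.

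TFC4 was the only region of the 12 inside a gene body. It codes for a subunit of TFIIIC, the assembly factor of RNA polymerase III, and scored 95.43, 805.27 and 672.72 in nrg1Δ, against none, none and 94.26 in wild type (chr7:586751-587854). GCS1, a GTPase-activating protein of vesicle transport, was the only one of the 12 with no wild-type peak at all. Its 3′ end region at chr4:50037-51214 scored 587.18, 382.39 and 314.29 in nrg1Δ. SRM1, the exchange factor of the Ran GTPase in nuclear transport, had a region over its 3′ end at chr7:322810-323893 with 221.68, 356.28 and 1245.58 in nrg1Δ, against 113.47, 555.27 and 53.84 in wild type. It was the only one of the 389 with a peak in all 6 Sut1p lists, and wild-type IP 2 was above nrg1Δ IPs 1 and 2 there.

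**Figure D4:**
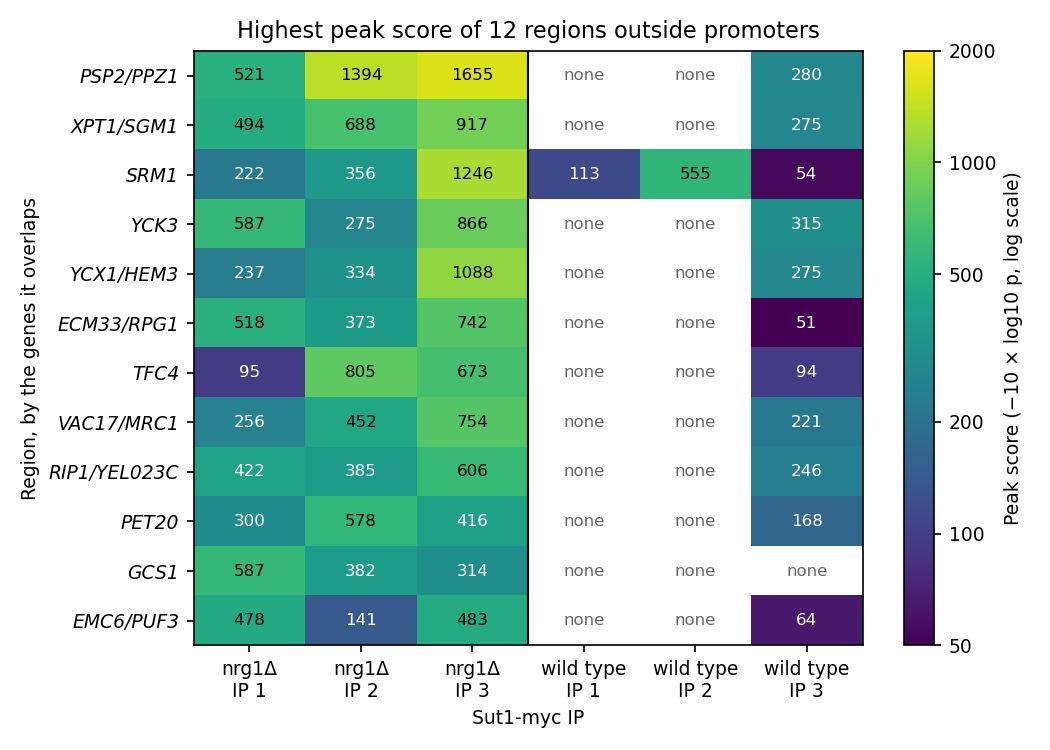
Highest Sut1 peak score in each IP for the 12 regions outside promoters with the highest mean nrg1Δ score among those seen in all 3 nrg1Δ IPs, with nrg1Δ columns left of wild type and "none" where no peak was called. Wild-type IPs 1 and 2 have a peak at SRM1 only, whereas wild-type IP 3 has one at 11 of the 12 regions, all but GCS1.

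High scores also occurred in single IPs. The highest was 354.92 in nrg1Δ IP 1, in a convergent region over MMS4, part of a DNA repair nuclease, and FES1, an exchange factor of Hsp70 (chr2:442644-444270). Next came 326.02 in IP 3 inside BUB1, a kinase of the spindle checkpoint (chr7:872806-874527), where wild-type IP 3 had 431.53. DPB11, a replication initiation gene, had 323.36 in IP 2 alone (chr10:263281-264478). MLP1, of the nuclear pore basket, had 301.99 in IP 3 and 225.38 in wild-type IP 3 (chr11:622196-623852). The region of HOP1, a meiotic chromosome axis gene, and PCI8 had 282.74 in IP 3 (chr9:228376-229805). Of these 5 regions, 3 lay inside genes. Scores of this size in 1 IP show that a high score in a list did not by itself mean that the other nrg1Δ IPs had a peak there.

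The wild-type lists took no part in choosing the regions. A wild-type peak counted from 1 shared bp, also where that peak itself touched a promoter. Of the 389, 5 (1.29%) had a peak in wild-type IP 1, 7 (1.80%) in IP 2 and 115 (29.6%) in IP 3. All merged nrg1Δ regions had one in 5.2%, 10.9% and 31.5% of cases, and those at promoters in 6.70%, 14.4% and 32.2%. Regions outside promoters thus fell below the background in each wild-type IP, by much in IPs 1 and 2 and by little in IP 3. The mean share was 10.9 ± 16.2% outside promoters and 17.8 ± 13.1% at promoters (SD over 3 wild-type IPs), a difference of -6.88 points that ran the same way in 3 of 3 IPs, with p = 0.25 in an exact sign-flip permutation test, the smallest it can give. The 3 IPs are not independent, since they come from 1 split culture and share an INPUT. The lists of wild-type IPs 1 and 2 also held few peaks outside promoters at all (5.98% and 5.99%). Without wild-type IP 3 the difference was -9.00 points, and without IP 2 it was -4.03 points. In any wild-type IP, 121 regions (31.1%) outside promoters had a peak, against 39% of all regions and 42.0% at promoters. Without IP 3 the shares were 2.06% outside promoters, 11.3% of all regions and 14.8% at promoters.

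The strongest regions were looked up in the same way. Among the 94 regions outside promoters with a best score of at least 200, 59 (62.8%) had a peak in wild-type IP 3 and 2 (2.13%) in wild-type IP 1 or 2. At promoters, the shares among 372 such regions were 51.3% and 23.7%. Of the 69 regions seen in all 3 nrg1Δ IPs, 2 had a peak in wild-type IP 1, 2 in IP 2 and 36 (52.2%) in IP 3, and at promoters the corresponding shares of regions seen in all 3 were 4.69%, 17.8% and 51.9%. In wild-type IP 3 these shares outside promoters were as high as at promoters or higher, and in wild-type IPs 1 and 2 they were lower. Wild-type IP 3 also had the longest of the wild-type lists, and the part of list length in these shares was not tested.

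The remaining 268 regions (68.9%) had no wild-type peak, 173 of them with a peak in 1 nrg1Δ IP, 63 in 2 and 32 in 3. As the regions were chosen for an nrg1Δ peak, this share is not a measure of gain. Looked at from the other side, 3 of 7, 6 of 16 and 102 of 165 (61.8%) of the wild-type peaks outside promoters overlapped an nrg1Δ region. Convergent regions made up 54.8% of those with a peak in wild-type IP 3, 4 of the 8 with a peak in IP 1 or 2, and 56.0% of those with none. The share of convergent regions was thus close to that of all 389 both with a peak in wild-type IP 3 and with no wild-type peak. Windows of the same widths gave 31.6% and 25.5% for these 2 groups. The groups also differ in replicate support, and the shares were not tested.

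Only 5 regions, SRM1 among them, were called in 2 or more of the wild-type IPs. At DOT1, the histone H3 lysine methyltransferase gene, and APT2 (chr4:1342517-1344550) nrg1Δ IPs gave none, 87.88 and 250.98, against 1117.2, none and 157.39 in wild type. That region starts 24 bp from a promoter, and a wild-type peak that touches this promoter would count as well. RIE1, an RNA-binding protein gene, had 55.65, 67.95 and 190.85 in nrg1Δ, against 218.2, 523.15 and none in wild type, with a region at chr7:989770-991631 that reaches into a wide gap of 1756 bp. Between SWH1 and FLO1, a flocculin gene, a region at chr1:198091-198913 overlaps no gene and lies 4489 bp before FLO1. It had 98.86 in nrg1Δ IP 2 alone, against 1372.24 and 3100 in wild-type IPs 1 and 2. Between AGP3, an amino acid permease gene, and AQY3 (chr6:18832-19440) it was 53.67 in nrg1Δ IP 3 alone, against 61.07 and 189.5 in wild-type IPs 1 and 2. These last 4 had their highest score in wild type. They were chosen for their wild-type peaks, and the 12 strongest regions for their nrg1Δ scores. Which strain held the highest score was therefore partly set by the choice.

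In lists of the other factors, the shares of regions outside promoters with a Gcn4p or Rtg3p peak were close to the background, and those for the other 3 factors were below it. A peak in any IP of Gcn4p was found at 28.0% of them in rtg3Δ and 31.1% in wild type, with a background over all 1404 regions of 28.8% and 31.1%. For Rtg3p it was 15.2% in gcn4Δ and 23.4% in wild type, with a background of 15.4% and 24.1%. For Swi6p it was 0.257% in swi4Δ and 5.40% in wild type, with a background of 0.712% and 10.5%. For Swi4p it was 3.60% in swi6Δ and 1.29% in wild type, with a background of 7.69% and 3.06%. For Nrg1p, the factor missing from the strain, it was 1.29% in sut1Δ and 1.54% in wild type, with a background of 2.07% and 3.28%. The lists of the other factors differ in how much they hold away from promoters at all: 21.4 to 43.5% of the peaks of each Gcn4p and Rtg3p list were outside promoters, against 0 to 5.88% for Swi4p and Swi6p and 0 to 21.1% for Nrg1p. A peak of these lists counted from 1 shared bp, also where that peak itself touched a promoter. These differences from the background were not tested.

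**Figure D5:**
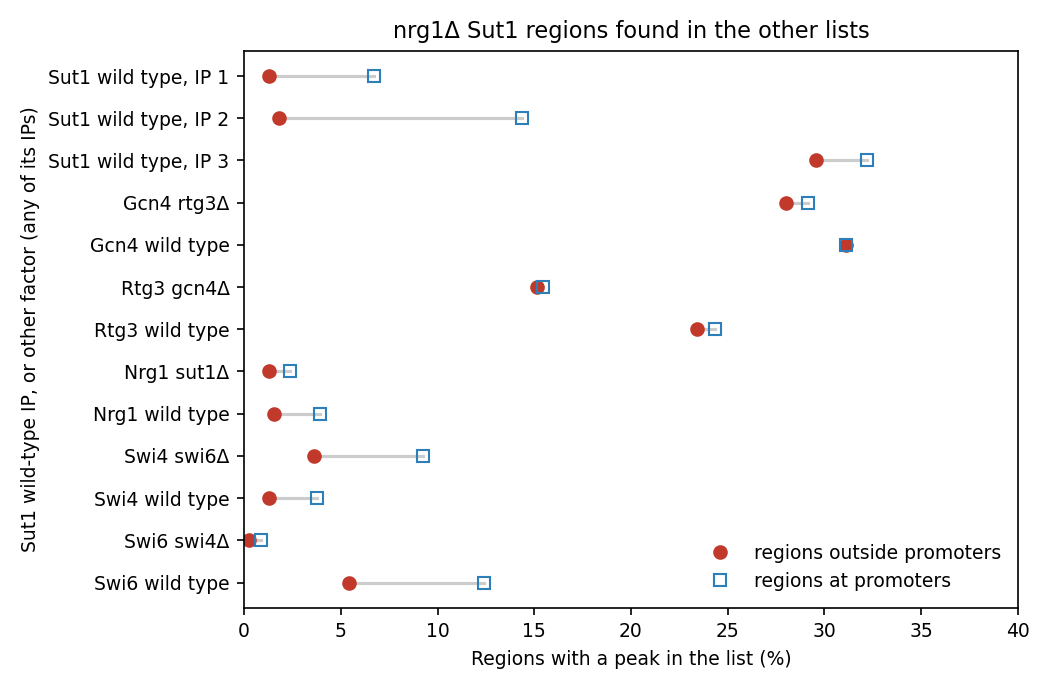
Percentage of the 389 regions outside promoters (red circles) and of the 1015 regions at promoters (blue squares) with a peak in each wild-type Sut1 IP, and in any IP of each other factor and strain. The circles lie far left of the squares for Sut1 wild-type IPs 1 and 2, for Swi6 in wild type (5.40% and 12.4%) and for Swi4 in swi6Δ (3.60% and 9.26%). They lie on or near the squares for Gcn4, Rtg3 and Sut1 wild-type IP 3.

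Over the 24 lists of other factors, a region outside promoters had a peak in a median of 1 list and at most 8, and 163 (41.9%) in none, whereas 379 (37.3%) of those at promoters had none. At least 5 lists were reached by 38 regions (9.77%) outside promoters and 173 (17.0%) at promoters. Regions seen in all 3 nrg1Δ IPs had more, with a median of 2 lists outside promoters and 3 at promoters. Among these 69, a wild-type Rtg3p peak was present at 43.5%, close to the 45.3% at promoters, and a wild-type Gcn4p peak at 29.0%, against 40% at promoters. PSP2/PPZ1, SRM1, YCK3 and YPR089W/NVJ2 were among those with the most lists, 8 each. NVJ2 codes for a protein of the contact between nucleus and vacuole.

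At PSP2/PPZ1 all 3 Gcn4p IPs had a peak in rtg3Δ (717.43, 299.4 and 606.8) and all 3 in wild type (255.76, 711.94 and 412.9), as did Rtg3p wild-type IPs 1 and 3 (157.98 and 364.81). SRM1 had Rtg3p peaks of 728.02 in gcn4Δ IP 1 and of 512.78, 646.71 and 186.25 in wild type, and a Swi4p peak of 1084.21 in swi6Δ. ECM33/RPG1 differed from the other strong regions in the lists that overlapped it. It had Swi6p peaks of 1422.99 and 1109.95 in wild type and Swi4p peaks of 824.88 in swi6Δ and 872.01 in wild type. A Nrg1p peak of 90.22 in wild-type IP 3 overlapped it too, and none of Gcn4p or Rtg3p did. The wild-type Swi4p list held only 2 peaks outside promoters, with a median score of 124.35. Its peak of 872.01 is therefore not 1 of these and touched a promoter as well as this region. In contrast, 139 regions (35.7%) had no peak in any of the 27 lists other than the nrg1Δ Sut1p lists, 97 with a peak in 1 nrg1Δ IP, 27 in 2 and 15 in 3.

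The regions overlapped 520 of the 6430 genes (8.09%). Most, 214, overlapped 1 gene, 160 overlapped 2, 1 overlapped 3 and 14 none, and 17 genes were overlapped by 2 regions each. Host genes were long, with a median of 1837.5 bp against 1131 bp over all genes, and 17.8% of protein-coding genes over 2000 bp were overlapped. Gene length thus moved with overlap, and the part of length in the counts below was not tested.

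Gene lists of central metabolism, protein folding, transport and the cell wall held at most 1 host gene each, with 4.55% to 6.25% overlapped in those that held one, against 8.09% of all genes. With lists this short the counts are a description and no result about the groups. Of 22 genes of glycolysis and fermentation only TDH3, the main glyceraldehyde-3-phosphate dehydrogenase, was overlapped, by a region with 72.49 in nrg1Δ IP 1 alone. None of 10 translation elongation factors, 21 plasma membrane transporters, 14 genes of glycogen and trehalose and 12 rRNA genes was overlapped. Of 16 chaperone genes there was YDJ1, an Hsp40 (285.63, 85.87 and 71.43 in nrg1Δ, against none, none and 145.41 in wild type). Of 22 cell wall genes there was BGL2, a glucanase (118.23, none and 127.27 in nrg1Δ, none in wild type). Of 20 genes of fatty acid and sterol synthesis, near the known role of Sut1p, there was OLE1, the fatty acid desaturase (90.64, 63.49 and 104.41 in nrg1Δ, none in wild type). All 4 of these regions were at convergent gene ends.

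Genes of cytoplasmic ribosomal proteins were overlapped in 9 of 138 cases (6.52%), under the 8.55% of all protein-coding genes. The strongest were RPL19A (74.18, 529.18 and 188.02 in nrg1Δ, against none, none and 176.39 in wild type), RPS11B (95.12, 240.44 and 245.47 in nrg1Δ, against none, none and 201.94 in wild type) and RPS12 (247.23, 163.45 and 55.56 in nrg1Δ, none in wild type). Of 275 tRNA genes 1 was overlapped, YNCC0014W, with 138.23, 107.69 and 61.5 in nrg1Δ and no wild-type peak. Of 82 snoRNA and snRNA genes there were LSR1, the U2 snRNA (172.02 in nrg1Δ IP 1 and 107.39 in wild-type IP 3), and SNR84 (53.36 in nrg1Δ IP 1). Genes within 25 kb of a chromosome end were overlapped in 11 of 321 cases (3.43%), led by VAC17 and MRC1.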

How the data were processed

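ChIP-Seq of myc-tagged factors was measured in 50 samples, 30 IPs and 20 INPUT samples. Per the submitters' processing notes and the study's methods, the authors processed 42-base reads with CASAVA 1.8, aligned them with Novoalign 2.07.0 to build R64, kept unique alignments and called peaks with MACS 1.4.0rc2 in each IP against INPUT, without pooling. The deposited score is the authors' MACS value, −10 × log10 of the P-value. The lists hold 8486 peaks and no read counts, so the depth per sample and its precision are unknown. Depth changes how many peaks a caller finds, and peak width decides whether a region touches a promoter.

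Starts were counted from 1, and 21 starts below the first base were set to it. Genes came from the RefSeq table of R64, whose build matches that of the notes, with strand read from the systematic name. Of 6431 nuclear genes, 1 without a strand was left out. A shared base of 1 bp counted as overlap. A region was called convergent if it overlapped the space between 2 neighbouring genes whose stop ends face each other or both these ends, gene body if it overlapped genes but no stop end, and 3′ end if it overlapped another stop end. Transposon genes are not marked in the table and were not counted. Sequences and motifs were not used here.

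Strains were compared by exact permutation tests over IPs and region sets by exact sign-flip tests over IPs. Nothing in the labels pairs equal replicate numbers, and deviations of same-numbered IPs correlated by -0.002, 0.032 and 0.041, so IPs were not paired. Named regions were the 12 with the highest mean score among those in all 3 nrg1Δ IPs, the 5 with the highest score in 1 IP alone, those in 2 or more wild-type IPs, the 5 in most lists of other factors, the 3 on either side of the promoter rule and up to 3 per gene list. Of the regions so named, 1 is not reported here. Members and gene lists were chosen with earlier results of these data known. Alternatives were promoters of 300 and 1000 bp, an overlap of 100 bp, protein-coding genes, a score of 100, at least 2 IPs, equal numbers of peaks, leaving out each IP and a replicate block. Functions were tested on simulated data. Python 3.11.15, NumPy 2.4.6 and Matplotlib 3.10.9 were used.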

Additional observations from a re-analysis of the deposited data

How the results depend on the processing

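The number of regions outside promoters moved to 206 with peaks of a score of at least 100 and to 165 with a peak in at least 2 nrg1Δ IPs, and ranged from 261 to 377 without 1 nrg1Δ IP. Promoters of 300 and 1000 bp, an overlap of at least 100 bp and protein-coding genes only gave 435, 321, 426 and 420. The remaining shares were recomputed under alternatives added after seeing the data. The convergent share was 63.1% with a score of at least 100 and 67.9% with at least 2 IPs, and 55.4 to 59.0% without 1 nrg1Δ IP. The share with a peak in wild-type IP 3 was 24.3% and 41.8% under the same settings, and 31.0 to 33.3% without 1 nrg1Δ IP. The share with a peak in wild-type IP 1 or 2, 2.06%, was 2.53% and 1.56% with promoters of 300 and 1000 bp, 3.81% with protein-coding genes only, and 1.53 to 2.31% without 1 nrg1Δ IP.

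With a score of at least 100 and with equal numbers of peaks, leaving out wild-type IP 3 as well (added after seeing the data) gave 17.0 and 12.5 points and 109 and 14.7 peaks. Without 1 IP and with all peaks, the difference between nrg1Δ and wild type was 9.10 to 20.4 percentage points (p from 0.1 to 0.5, exact permutation test) and 118 to 218 peaks (p 0.1 or 0.2, exact permutation test), the difference in regions found again was -16.5 to -6.15 points, and that in regions with a wild-type peak was -9.00 to -4.03 points. None of these 4 differences changed direction under any alternative run. A paired analysis with same-numbered IPs as a replicate block gave the same differences of 12.85 points and 166 peaks, each with p = 0.25 in an exact sign-flip permutation test, the smallest it can give. Equal numbers do not pair these IPs, and the block changed no call. Depth is unknown, so a region without a peak in a list cannot be told from one below that list's detection.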

Other observations

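Among the 389 regions 14 overlap no gene at all. Those seen in every nrg1Δ IP, chosen after their values were seen, were a region 26 bp beyond the end of SEO1, a gene of the permease family, at chr1:6230-7208, and one between YER186C and YER187W at chr5:563550-564657. The first had scores of 122.11, 115.25 and 161.86 in nrg1Δ and no wild-type peak, and the second 348.65, 136.14 and 223.18 in nrg1Δ, against none, none and 89.29 in wild type. A region 1838 bp beyond the stop end of the flocculin gene FLO11, at chr9:386621-387733, had 161.28 in nrg1Δ IP 3 and no other Sut1p peak. Between YNCP0018C and THI22, at chr16:776496-777509, nrg1Δ IP 3 had 146.21 and wild-type IP 2 had 83.8.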
